A study of Mus musculus with 26 samples.

Results

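The 9 genes described here, Rrm1, Rrm2, Rrm2b, Tyms, Tk1, Dck, Samhd1, Dctpp1 and Dut, encode enzymes that make, salvage or remove the deoxynucleotides from which DNA is built. They were taken as a named list and are 9 of the 55487 genes in the table. Each gene symbol matched 1 gene. Both RNA and replication state of single blastomeres were measured at the 8-cell stage of the mouse by scRR-seq, which keeps the chromatin of a lysed cell on beads while its RNA stays in solution. The labels describe 13 cells of 2 embryos, and the tables hold 9 of them, cells 1, 6 and 7 of embryo 1 and cells 2, 3, 5, 6, 7 and 8 of embryo 2. The other 4 cells were not analysed here. The embryos came from in vitro fertilization of C57BL/6 mice and carried no transgene or treatment, and their blastomeres were separated by hand.

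The study placed the cells of embryo 2 in S phase and those of embryo 1 outside it, in G1 or G2/M. The percentage replication score, which is the share of 40-kb bins called replicated, was 0.00385% to 3.54% in the 3 cells of embryo 1 and 62.4% to 80.5% in the 6 cells of embryo 2. Xist RNA was at 140 TPM or more in every cell of embryo 1 and at no more than 0.9 TPM in embryo 2, while the Y-linked Ddx3y was listed at 0 in embryo 1 and was at 15.7 TPM or more in embryo 2. Embryo, sex and position in the cell cycle therefore cannot be told apart. Each embryo is 1 biological replicate, so differences were not tested, and errors are SDs between the cells of an embryo. TPM, transcripts per 1000000, is a share of the RNA of a cell set per transcript length and keeps no read depth. Of 8 blastomere markers, 7 were above 1 TPM in all 9 cells (all but Sox2, at no more than 0.6 TPM), and 6 of 8 cumulus and granulosa markers were listed at 0 throughout. The latter list summed to 0 TPM in each cell of embryo 1 and ran from 0 to 6.13 TPM across embryo 2, where Ptx3 in cell 6 made up the highest value. The share of TPM in mitochondrial genes averaged 5.78% ± 1.32 over embryo 1 (SD, n = 3 cells) and 11.7% ± 5.14 over embryo 2 (SD, n = 6 cells). Because TPM is a share, this moves against the TPM of nuclear genes, and its part in the results is given by rescaled values below.

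DNA synthesis needs 4 deoxynucleoside triphosphates in balance. Ribonucleotide reductase, a complex of a large and a small subunit, makes the deoxy forms by reducing ribonucleotides. Thymidylate synthase and thymidine kinase supply the thymine nucleotide, which ribonucleotide reductase does not make directly, and deoxycytidine kinase recovers deoxynucleosides from outside the de novo route. Hydrolases limit the pools or remove unwanted members of them. Cleavage-stage blastomeres divide without growth between divisions, and each S phase copies the whole genome.

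All 9 genes had a mean above 1 TPM, and all 9 were above 1 TPM in every cell except Samhd1, which was at 0.96 TPM in embryo 2 cell 6. In order of the mean over the 9 cells, the levels were 275 TPM for Tyms, 239 for Rrm2, 186 for Tk1, 125 for Rrm1, 123 for Dut, 30.6 for Dctpp1, 11.7 for Dck, 6.75 for Samhd1 and 5.25 for Rrm2b. Tyms ranked above 96.1% of the 13648 genes with a mean above 1 TPM, and Rrm2b above 36.7%. Most Tyms TPM lay in the short models Tyms-205 (mean 124 TPM) and Tyms-207 (99.0 TPM), beside 12.8 TPM in the full coding model Tyms-201. TPM divides by transcript length, so the level and rank of Tyms and its step to Rrm2 depend on this assignment. Between neighbours in this order, the step from Dut to Dctpp1 was the widest, 1.99 ± 0.70 (SD, n = 9 cells) on the log2(TPM + 1) scale, and was in the same direction in 9 of 9 cells. The steps from Tyms to Rrm2 (0.14 ± 0.67), Rrm1 to Dut (0.01 ± 0.65), Dck to Samhd1 (0.89 ± 1.495) and Samhd1 to Rrm2b (0.10 ± 1.18) did not exceed the SD between cells. The list thus held 5 genes above 100 TPM on average and 4 genes below 31 TPM.

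**Figure D1:**
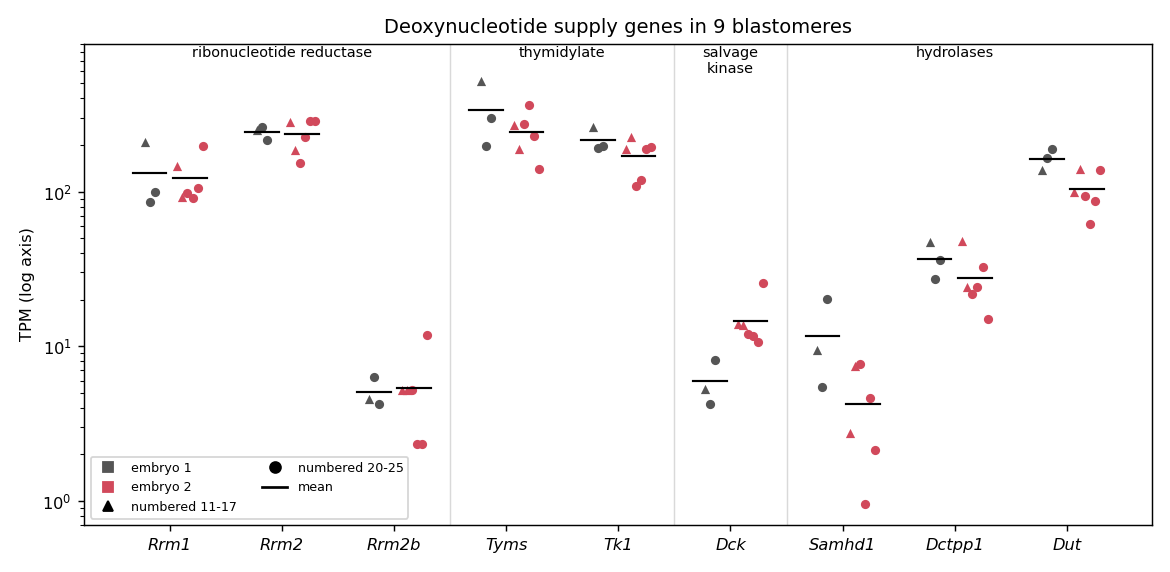
TPM of the 9 genes in each cell on a log axis, with embryo 1 in grey, embryo 2 in red, triangles for cells numbered 11 to 17, circles for cells numbered 20 to 25 and black bars at the mean of each embryo. Dck is the only gene with all 6 cells of embryo 2 above all 3 cells of embryo 1, and the other 8 genes overlap between embryos.

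The comparison set the cells of embryo 2, in S phase, beside those of embryo 1, outside it. The embryos also differ in sex, so no effect of S phase can be read from it. Dck was the only member that separated the embryos, with every cell of embryo 2 above every cell of embryo 1. The other 8 members overlapped. Among all genes with a mean above 1 TPM, 0.843% had every embryo 2 cell higher and 2.51% had every embryo 2 cell lower, against 1 and 0 of the 9 members. Higher calls were 25.2% of the genes that separated the embryos, and 36.5% after TPM were rescaled without mitochondrial genes. The difference in mean log2(TPM + 1), embryo 2 minus embryo 1, was below 0 for 8 members and above 0 for 1. Its median over the members was -0.37, beside -0.04 over all genes, where 52.4% of genes were below 0. The difference was wider than the pooled SD between cells for 3 members, Dck, Samhd1 and Dut, and 23.4% of all genes passed the same mark. The median moved to -0.12 without embryo 1 cell 1, the cell with the highest Rrm1, Tyms and Tk1 of all 9.

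**Figure D2:**
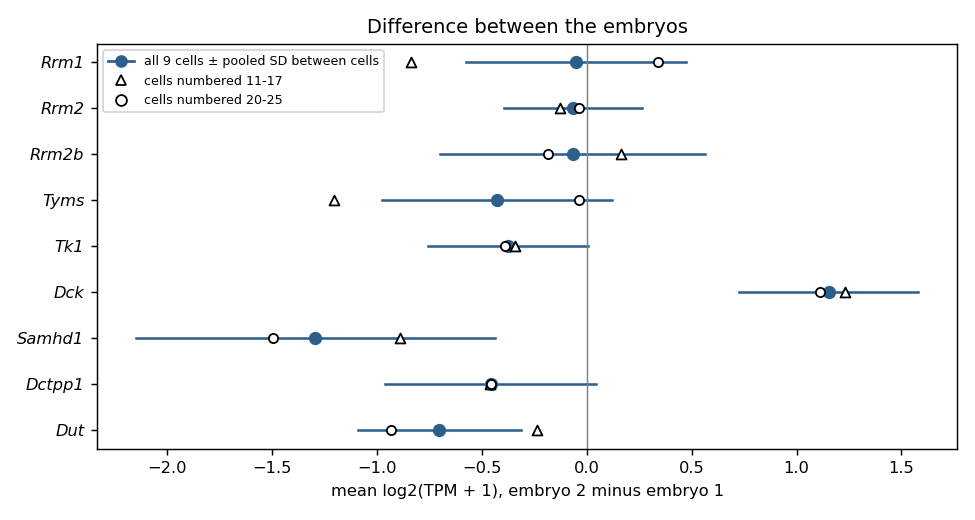
Difference in mean log2(TPM + 1), embryo 2 minus embryo 1, for each gene, with filled points and lines for all 9 cells ± the pooled SD between cells, open triangles for cells numbered 11 to 17 (1 cell of embryo 1, 2 of embryo 2) and open circles for cells numbered 20 to 25 (2 cells of embryo 1, 4 of embryo 2). Dck lies to the right of 0 in all 3 comparisons, and Rrm2, Tyms, Tk1, Samhd1, Dctpp1 and Dut lie to the left in all 3.

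Rrm1 (ENSMUSG00000030978.10, chr7:102441695-102469771, plus strand, mm10) encodes the large subunit of ribonucleotide reductase, which holds the catalytic and allosteric sites. It was at 209, 85.1 and 99.2 TPM in cells 1, 6 and 7 of embryo 1. In embryo 2 it ran from 90.6 TPM in cell 6 through a median of 102 to 197 TPM in cell 8. Cell 1 of embryo 1 and cell 8 of embryo 2 were the highest, and the embryos overlapped. The difference was -0.05 on the log2(TPM + 1) scale with a pooled SD of 0.53. It was -0.84 within the cells numbered 11 to 17 and 0.34 within those numbered 20 to 25, so its direction was not the same in both ranges.

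The TPM of Rrm1 were split mainly between the full coding model Rrm1-201 (3997 bases), with a mean share of 51.0%, and the short model Rrm1-202 (747 bases), with 46.6%. The split varied between cells, from 33.1% to 77.0% for Rrm1-201 and from 23.02% to 66.9% for Rrm1-202. Rrm1-202 is annotated as a target of nonsense-mediated decay and covers 4 exons towards the 3′ end of the gene. It held 38.5% ± 10.9 (SD) in the cells numbered 11 to 17 and 50.6% ± 16.6 (SD) in those numbered 20 to 25. The study reports that scRR1, its protocol with the smaller lysis volume, was biased towards transcript 3′ ends in embryo cells. The part of protocol in this split was not tested. TPM divides by transcript length. When the TPM of each model was multiplied by its length, the share in models not annotated as coding fell from 49.0% to 17.3%. The short model has 4 exons against 19 in the full one, and a last exon of 388 bases against 1477. It also has an intron that ends 14 bases earlier (chr7:102465814-102466863 against chr7:102465814-102466877). Reads over this junction were not analysed here. The joined exon ends are shown in spliced order, with the bases after the junction in capitals, because these letters differ between the models there:
Rrm1-201: aatggctccattcagAGCATACCAGAAATT
Rrm1-202: aatggctccattcagTTTTCCTTTTTCAGA

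Rrm2 (ENSMUSG00000020649.11, chr12:24708241-24714146, plus strand) encodes the small subunit that carries the tyrosyl radical and is used in S phase. It was at 251, 260.15 and 215 TPM in the 3 cells of embryo 1. Cells 2, 3, 5, 6, 7 and 8 of embryo 2 had 281, 187, 153, 226, 288 and 286 TPM. The values of embryo 1 lay inside the range of embryo 2. The difference of -0.07 was smaller than the pooled SD of 0.33. Rrm2 was the steadiest member, with a coefficient of variation of 19.8% over the 9 cells. Its RNA exceeded that of Rrm1 in 9 of 9 cells, by 1.198 times in embryo 1 cell 1 and 3.06 times in embryo 1 cell 6 at the ends.

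The full model Rrm2-201 held 95.5% of Rrm2 TPM on average. The coding model Rrm2-204 (841 bases) held 14.7%, 19.4% and 1.71% of Rrm2 TPM in embryo 1 cell 1 and embryo 2 cells 2 and 3, and it was listed at 0 in the other 6 cells. Those 3 cells are the ones numbered 11 to 17 by their titles, and the study's sample list gives them another lysis protocol than the rest. Biology and protocol cannot be told apart for this model.

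Rrm2b (ENSMUSG00000022292.16, chr15:37923952-37961318, minus strand) encodes the alternative, p53-inducible small subunit, which serves DNA repair and mitochondrial DNA outside S phase. It was at 4.54, 6.34 and 4.23 TPM in embryo 1. The 6 cells of embryo 2, in the same order, had 5.22, 5.19, 5.21, 2.33, 2.32 and 11.9 TPM. Cell 8 of embryo 2 was the highest and cells 6 and 7 the lowest of all 9, so the range of embryo 2 enclosed that of embryo 1. Rrm2b made up 2.03% ± 0.31 of the summed small-subunit TPM over the 3 cells of embryo 1 (SD) and 2.27% ± 1.28 over the 6 cells of embryo 2 (SD). The log2 ratio of Rrm2 to Rrm2b, each with 1 TPM added, was 5.34 ± 0.18 in embryo 1 and 5.34 ± 0.80 in embryo 2. Within embryo 2 the ratio without the added TPM ran from 24.005 in cell 8 to 124 in cell 7. A processed pseudogene, Gm3362, lies inside Rrm2b on the same strand and was at 0 to 22.1 TPM. Of Rrm2b TPM, 34.2% on average fell in a model with a retained intron, so the level of coding Rrm2b RNA is uncertain.

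Tyms (ENSMUSG00000025747.12, chr5:30058202-30073617, minus strand) encodes thymidylate synthase, which methylates dUMP to dTMP. It was at 522, 198 and 298 TPM in embryo 1. In embryo 2 it was at 271, 188, 273, 361, 227 and 139.78 TPM in cells 2, 3, 5, 6, 7 and 8. Cell 1 of embryo 1 was the highest of all 9 and cell 8 of embryo 2 the lowest, and the embryos overlapped. The difference of -0.43 was within the pooled SD of 0.55. It was -1.21 within the cells numbered 11 to 17 and -0.04 within those numbered 20 to 25. Cell 1 is the only cell of embryo 1 in the lower range, and without it the difference was -0.06.

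Most of the Tyms TPM were assigned to models that do not encode the full enzyme. The models Tyms-205 (618 bases) and Tyms-207 (636 bases), both annotated as targets of nonsense-mediated decay, together held 69.1% to 92.3% of Tyms TPM in the 9 cells. The full coding model Tyms-201 (3163 bases) held 1.54% to 8.16%. The share in models not annotated as coding averaged 83.7% ± 11.4 for embryo 1 (SD, n = 3 cells) and 89.8% ± 8.76 for embryo 2 (SD, n = 6 cells), a gap smaller than either SD. Weighted by length, the mean share was 77.9% in place of 87.8%. Both short models leave out nearly all of the 2307-base last exon of Tyms-201. Each also has a splice junction found in no other annotated model of the gene. Tyms-205 uses an earlier end of the first exon, with an intron at chr5:30071708-30073461 in place of chr5:30071708-30073360. Tyms-207 skips the third exon of Tyms-201 (chr5:30068466-30068640, 175 bases), with an intron at chr5:30064187-30071633. The junctions are printed 5′ to 3′ on the minus strand, with bases after the junction in capitals, since these stretches separate the short models from the coding one:
Tyms-201 first junction: gatacagcctgagagATGAATTTCCTCTGC
Tyms-205 first junction: actccagtacctgagATGAATTTCCTCTGC
Tyms-201 junction into the third exon: ttgtggtttatcaagGGATCCACAAATGCT
Tyms-201 junction out of the third exon: aagatatggattcagATTACTCGGGACAAG
Tyms-207 junction past the third exon: ttgtggtttatcaagATTACTCGGGACAAG
The deposited values are estimates over whole models. Reads over these junctions were not analysed here. The processed pseudogene Tyms-ps on chromosome 10 was at no more than 1.49 TPM in any cell.

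Tk1 (ENSMUSG00000025574.13, chr11:117815526-117826092, minus strand) encodes the cytosolic thymidine kinase, the salvage route to dTMP. It was at 261, 192 and 196 TPM in embryo 1. Across cells 2, 3, 5, 6, 7 and 8 of embryo 2 it was at 188, 224, 109, 119, 188 and 195 TPM. Cells 5 and 6 of embryo 2 were the lowest of all 9, and 4 of the 6 cells of embryo 2 lay below the lowest cell of embryo 1. The difference of -0.37 was close to the pooled SD of 0.38, and it was -0.34 within the cells numbered 11 to 17 and -0.39 within those numbered 20 to 25. The retained-intron model Tk1-203 (724 bases at the 3′ end of the gene) held 29.2% to 36.3% of Tk1 TPM in embryo 1, and 6.09% and 11.9% in cells 5 and 6 of embryo 2, the cells with the least Tk1. The other 4 cells of embryo 2 lay between 20.4% and 29.8%, so the highest of them overlapped with embryo 1. The annotated gene Gm20708 spans Tk1 on the other strand and was at 0 to 11.2 TPM, and Afmid overlaps it by 169 bases. Whether strand was used in the quantification is not given in the sources used here.

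**Figure D3:**
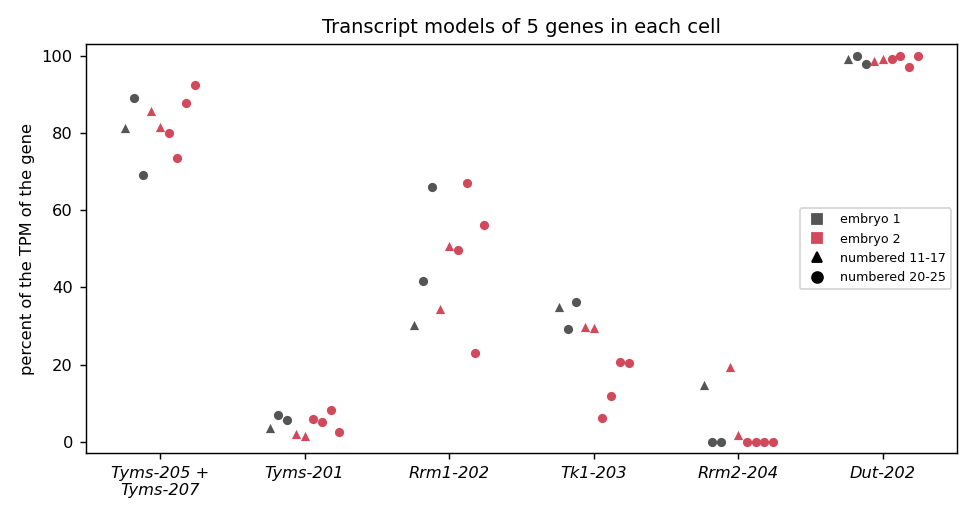
Percent of the TPM of each gene in named transcript models, 1 point per cell, with embryo 1 in grey, embryo 2 in red, triangles for cells numbered 11 to 17 and circles for cells numbered 20 to 25. The short Tyms models lie between 69.1% and 92.3%, the coding Tyms-201 lies at 8.16% or less, and Rrm2-204 is above 0 only in the 3 triangles.

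Dck (ENSMUSG00000029366.10, chr5:88764996-88783281, plus strand) encodes deoxycytidine kinase, which phosphorylates deoxycytidine and the purine deoxynucleosides. It was at 5.31, 4.25 and 8.21 TPM in cells 1, 6 and 7 of embryo 1. In embryo 2 it was at 13.9, 13.7, 11.97, 11.6, 10.7 and 25.8 TPM in cells 2, 3, 5, 6, 7 and 8. The lowest cell of embryo 2 was above the highest cell of embryo 1, and cell 8 stood above the other 5. Embryo 1 averaged 5.92 ± 2.05 TPM (SD, n = 3 cells) and embryo 2 averaged 14.6 ± 5.63 TPM (SD, n = 6 cells), a ratio of 2.47. The log2(TPM + 1) difference was 1.15 with a pooled SD of 0.43. It was 1.23 within the cells numbered 11 to 17 and 1.11 within those numbered 20 to 25. Without cell 8 of embryo 2 it was 0.98, and after rescaling without mitochondrial genes it was 1.25. Dck was above embryo 1 in every cell of embryo 2 under each of the 3 rescalings. Leaving out a cell could not make the embryos overlap, so it was no check on this. With 10 TPM added before the log in place of 1, the difference was 0.61. As a share of the summed TPM of the 9 genes, a value that no scaling of a cell can move, Dck took 0.53% ± 0.21 (SD) in embryo 1 and 1.57% ± 0.51 (SD) in embryo 2, again without overlap. All Dck TPM were assigned to 1 coding model.

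Of the 3 hydrolases, Samhd1 (ENSMUSG00000027639.16, chr2:157097533-157135265, minus strand) encodes a triphosphohydrolase that breaks down deoxynucleoside triphosphates. It was at 9.42, 5.45 and 20.3 TPM in embryo 1. In embryo 2 it was at 2.74, 7.46, 7.69, 0.96, 4.60 and 2.13 TPM in cells 2, 3, 5, 6, 7 and 8. Cell 7 of embryo 1 was the highest, and 4 of the 6 cells of embryo 2 lay below the lowest cell of embryo 1. The difference of -1.29 had a pooled SD of 0.85. It was -0.89 within the cells numbered 11 to 17 and -1.497 within those numbered 20 to 25. Samhd1 was the most variable member, with a coefficient of variation of 86.1% over the 9 cells. The share of its TPM in models not annotated as coding ran from 0% in cells 5 and 8 of embryo 2 to 100% in cell 6, so the coding level cannot be read in single cells.

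Dctpp1 (ENSMUSG00000042462.4, chr7:127256959-127260709, minus strand) encodes a pyrophosphatase for dCTP and its modified forms. It was at 47.2, 27.1 and 36.0 TPM in embryo 1, and in embryo 2 it ran from 14.9 TPM in cell 8 through a median of 24.2 to 47.6 TPM in cell 2. The highest cell of each embryo was nearly level and the embryos overlapped. The difference of -0.46 did not exceed the pooled SD of 0.50.

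Dut (ENSMUSG00000027203.15, chr2:125247190-125258608, plus strand) encodes dUTPase, which splits dUTP to dUMP, keeps uracil out of DNA and provides the substrate of thymidylate synthase. It was at 138.89, 165 and 187 TPM in cells 1, 6 and 7 of embryo 1. In embryo 2 it was at 99.1, 139.54, 94.2, 61.8, 86.4 and 138 TPM in cells 2, 3, 5, 6, 7 and 8. Of the 6 cells of embryo 2, 5 lay below every cell of embryo 1, and cell 3 overlapped by less than 1 TPM. The means were 164 ± 24.2 TPM (SD, n = 3 cells) and 103.2 ± 30.4 TPM (SD, n = 6 cells). The log2(TPM + 1) difference was -0.70 with a pooled SD of 0.39, -0.24 within the cells numbered 11 to 17 and -0.94 within those numbered 20 to 25. Without embryo 2 cell 3 the embryos did not overlap, and neither did they without embryo 1 cell 1. The share of all genes lower in every embryo 2 cell was then 3.45% and 4.61%.

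The model Dut-202 held 97.0% to 100% of Dut TPM, and Dut-201 the rest. They begin in different first exons and encode 200 and 162 codons. The last 474 coding bases, the stop codon included, are shared. They also end at different sites, so the split need not come from the first exon alone. The first 30 coding bases are shown, with the start codon in capitals, to show how the coding starts differ. They lie at chr2:125247272-125247301 for Dut-202 and chr2:125247748-125247777 for Dut-201, plus strand:
Dut-202: ATGcctctcctaagcgtgctgctgcgcgcc
Dut-201: ATGccctgctcggaagatgccgcggccgtc

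Within a cell, the summed TPM of the 9 genes was divided by role. Thymidylate genes held 47.3% ± 6.40 of it over the 3 cells of embryo 1 and 45.0% ± 6.90 over the 6 cells of embryo 2 (SD). All shares here depend on the assignment of Tyms TPM to short models. Ribonucleotide reductase genes held 33.1% ± 3.77 and 38.8% ± 6.38, a gap of 5.70 percentage points beside a pooled SD of 5.75. Hydrolases held 19.1% ± 4.95 and 14.6% ± 3.24. Cell 8 of embryo 2 had the highest reductase share of the 9 cells, 48.9%, and the lowest thymidylate share, 33.2%. The sum itself was 1152 ± 263 TPM in embryo 1 and 927 ± 100.3 TPM in embryo 2, and cell 1 of embryo 1 was highest at 1447 TPM.

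**Figure D4:**
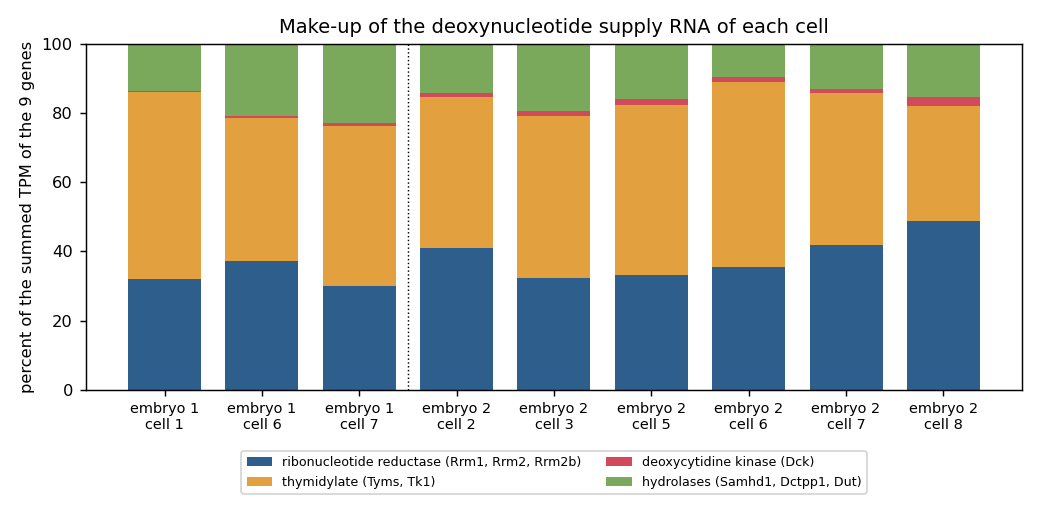
Stacked bars of the percent of the summed TPM of the 9 genes held by each role, 1 bar per cell, with a dotted line between embryo 1 and embryo 2. Thymidylate genes range from 33.2% to 54.0% and reductase genes from 30.0% to 48.9%, while the thin band of Dck is wider in every embryo 2 cell.

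The replication state of each gene body was the sign of the mean state of the bins it overlaps. In the cells of embryo 2, 9, 9, 9, 8, 8 and 9 members were replicated in cells 2, 3, 5, 6, 7 and 8. The exceptions were Dck, unreplicated in cell 6, and Dctpp1, unreplicated in cell 7. Each of these calls rests on 1 bin, and another difference in copy number there was not tested. Of the 9 members, 7 were replicated in all 6 cells, as were 74.4% of the 11257 genes with a mean above 1 TPM that could be placed. In cell 6, the cell with the lowest score, 80.9% of those genes were replicated. Dck RNA in that cell was at 11.6 TPM. Dctpp1 RNA in cell 7 was at 32.3 TPM, the second highest of embryo 2.

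In embryo 1 no member was called replicated in cells 6 and 7. A call is relative to the rest of the genome of a cell, so DNA that is all uncopied and DNA that is all copied cannot be told apart, and these calls do not show that the genes had not been replicated. In cell 1 Rrm1 and Dctpp1 were called replicated. Both lie on chromosome 7, which held 1438 of the 1838 bins called replicated in that cell, 43.2% of its bins against 0.82% elsewhere. In a cell outside S phase, replication of this chromosome and another difference in its copy number cannot be told apart. The study describes representative embryo 1 cells as uniform in copy number apart from regions with chromosomal abnormalities. Its legend does not name the chromosome. Rrm1 in this cell was 1.18 higher on the log2(TPM + 1) scale than the mean of cells 6 and 7, and Dctpp1 0.58 higher. The median was 0.65 over 225 chromosome 7 genes in such bins and 0.23 over 8168 genes of other chromosomes. Tyms, on chromosome 5 and called unreplicated there, was also 1.10 higher.

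**Figure D5:**
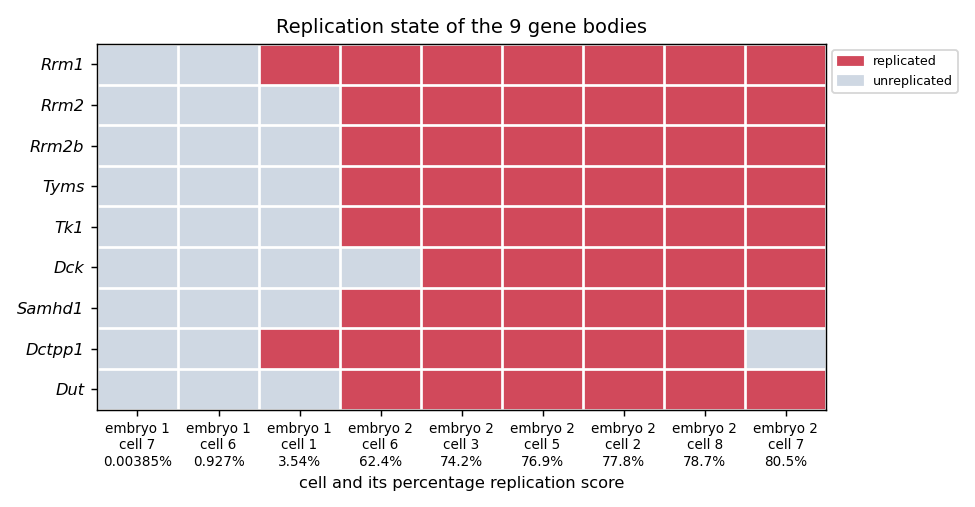
State called replicated (red) or unreplicated (pale) for the 9 gene bodies, 1 column per cell in order of its percentage replication score. All members are replicated in the cells of embryo 2 except Dck in cell 6 and Dctpp1 in cell 7, and Rrm1 and Dctpp1 are called replicated in embryo 1 cell 1.

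Inside embryo 2 the levels were listed in order of the replication score, cells 6, 3, 5, 2, 8 and 7. Rrm1 was at 90.6, 92.6, 97.97, 147, 197 and 106 TPM in this order, and Rrm2 at 226, 187, 153, 281, 286 and 288 TPM. Tyms was at 361, 188, 273, 271, 139.78 and 227 TPM, and Dut at 61.8, 139.54, 94.2, 99.1, 138 and 86.4 TPM. The 3 cells with the highest scores held the 3 highest values of 2 of the 9 members, Rrm1 and Rrm2, and not of the other 7. The share of all genes with this order was not determined, so this count has no background and nothing is read from it. Of the cells of embryo 2, 5 lie within 6.28 percentage points of each other, so the order among them rests on small gaps, and the order was not tested.

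The closing numbers of the cell titles fall into the ranges 11 to 17 and 20 to 25, and each holds cells of both embryos. None of the 9 members was higher in every cell of the lower range, against 6.13% of all genes, and none was lower in every cell of it, against 1.24%. Within the range 20 to 25, Dck was higher in every embryo 2 cell (6.15% of genes) and Dut lower (8.90% of genes). Within the range 11 to 17, with 1 cell against 2, Rrm2b and Dck were higher (27.5% of genes) and Rrm1, Tyms, Tk1 and Samhd1 lower (38.3% of genes). Dck had to be higher within both ranges, since it was so over all cells.

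A list of 57 further genes of the pathway, without the 9, gave the setting. All 57 were found and 53 had a mean above 1 TPM. Cmpk2, Cda and Tymp were listed at 0 in all 9 cells, and Nt5m was below the mark. None of the 53 had all cells of embryo 2 above those of embryo 1 and 4 had them below, beside 0.843% and 2.51% of all genes. The median difference over the 53 was -0.17. The highest were Nme2, a nucleoside diphosphate kinase, at a mean of 2371 TPM, Hprt, which salvages purine bases, at 1330 TPM, and Impdh2, which makes guanine nucleotides, at 1288 TPM.

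The 4 that separated the embryos were Dtymk, Nudt1, Prps1 and Ada. Dtymk, the kinase that takes dTMP from Tyms and Tk1 to dTDP, ranged from 176 to 279.78 TPM over embryo 1 and from 117 to 171 TPM over embryo 2. Its difference was -0.55 with a pooled SD of 0.25. Nudt1, which removes oxidized purine nucleotides, ranged from 41.2 to 48.4 TPM over embryo 1 and from 11.3 to 30.8 TPM over embryo 2, a difference of -0.91 with a pooled SD of 0.43. Prps1, which makes the ribose donor of nucleotide synthesis, was at 589 to 781 and 360 to 581 TPM. Prps1 lies on the X chromosome and the embryos differ in sex, so the part of sex in its difference cannot be told apart. Ada, adenosine deaminase, was at 0.76 to 4.66 TPM and at 0.74 TPM or less in embryo 2. After each cell was scaled by its median over shared genes only Nudt1 stayed apart, and without mitochondrial genes Dtymk and Nudt1 did.

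Among pathway genes with a mean of 10 TPM or more, the widest differences besides Nudt1 were those of Adss (-1.26, pooled SD 0.79), Mthfd2 (-1.24, 0.79), Dhodh (-1.17, 0.89) and Hprt (-0.65, 0.49). Adss makes the precursor of AMP, Mthfd2 is a mitochondrial folate enzyme and Dhodh a step of pyrimidine synthesis. Hprt, like Prps1, lies on the X chromosome, and the same limit holds for it. All 5 pyrimidine de novo genes, Cad, Dhodh, Umps, Ctps and Ctps2, had differences below 0 with a median of -0.60, and all overlapped between embryos. Of all genes, 52.4% were below 0. Only Dhodh passed its pooled SD. Cad was at -0.08 (pooled SD 0.71), Umps at -0.34 (0.66), Ctps at -0.60 (0.62) and the X-linked Ctps2 at -0.71 (0.82). The group was picked after its values were seen, so nothing is read from this count. Of 8 electron donors and regulators of ribonucleotide reductase, 5 were above 0, beside the same share of all genes below 0, and none separated the embryos.

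Across the 9 cells, likeness to a member was measured as Pearson's r of log2(TPM + 1) among 6769 genes with a mean of 10 TPM or more. The 3 genes most like Rrm2 were Fgfr1 (r = 0.93), Sall1 (0.91) and Ddhd2 (0.91). For Rrm1 they were Cnmd (0.92), Gm11800 (0.90) and Gm27592 (0.88), and for Tyms they were Ctu1 (0.94), Ubxn6 (0.94) and Pnpla2 (0.90). The 9 points share embryo, protocol and scaling, and the top values were picked among all 6769 genes. Between the members themselves the median r over 36 pairs was 0.15. It was highest for Samhd1 with Dut (0.69). Rrm1 with Rrm2, at 0.47, ranked 7 of the 36 pairs from the highest.

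Promoters in the RefSeq table (GRCm38.p6) were found for 8 of the 9 genes, all but Rrm2b, and 250 bases before the start were searched on both strands. Genes of this pathway are known targets of E2F, and CCAAT is the box bound by NF-Y. No member held TTTCCCGC, TTTGGCGC, TTTGCCGC or TTTCGCGC, which 1.86% of 32851 promoters held. Only these exact letters were searched, so other forms of the E2F site were not covered and its absence is not shown. CCAAT was found in 3 of the 8, Rrm1, Rrm2 and Dctpp1, and in 33.8% of promoters. The member count is near that share, so nothing is read from it. TTTGAA, the letters of the CHR element of cell cycle genes, was found in Dck alone, and in 15.99% of promoters. In Dck it lay 245 bases before the start, on the other strand and near the far end of the searched stretch. Rrm1 held CCAAT 91 and 45 bases before the start, Dctpp1 130 and 31 bases before it on the other strand, and Rrm2 50 bases before it. These are RefSeq starts, and the Dctpp1 site at 31 bases lies inside the gene span given above. As a description only, the CCAAT nearest the start of Rrm1 and of Rrm2 is shown in capitals with its surroundings:
Rrm1, chr7:102441628-102441676, plus strand: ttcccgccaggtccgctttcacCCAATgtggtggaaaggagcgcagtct
Rrm2, chr12:24708182-24708230, plus strand: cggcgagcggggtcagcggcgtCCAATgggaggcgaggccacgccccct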

How the data were processed

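RNA and DNA were sequenced from the same blastomeres. For RNA, the authors brought every cell to a similar read number, mapped the reads to mm10 with Hisat and estimated gene and transcript abundance with RSEM against GENCODE M25, and deposited TPM values. For DNA, the authors aligned reads with BWA 0.7.17-r1188, named in the submitters' processing notes, and called states in 40-kb bins with AneuFinder. They deposited a score per bin, where 1 stands for replicated, -1 for unreplicated and 0 for missing. Each table held 14 further columns with no label of this series, which were not used. Read depth behind a value is not known, so no counting interval is given. The RNA headers repeated 1 embryo and cell, and columns were assigned by the number that closes each title, and sex-linked RNA was used to check this. All RNA columns differed.

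Genes were placed with GENCODE M21 on the same build. Values were compared as log2(TPM + 1) with no test, since each embryo is 1 replicate. The calculation was run on simulated data with planted differences, which checks its arithmetic and not the differences reported here. Genes with a mean above 1 TPM were the background. All members were named. Of the pathway list, the text names the 3 highest, each gene that separated the embryos, and the 5 widest differences at a mean of 10 TPM or more. For Rrm1, Rrm2 and the member with the highest mean, the 3 genes with the highest r are named, and Tyms-ps as the named pseudogene. Rrm2-204, the other models and the genes that overlap members were named after their values were seen, as were the genes with no signal and the pyrimidine group. The members and lists were chosen with earlier results of these data known. Alternatives covered the pseudocount, 3 rescalings, the filter on low values, left-out cells and the number ranges. Analyses used Python 3.11.15, numpy 2.4.6, pandas 2.3.3 and matplotlib 3.10.9.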

Additional observations from a re-analysis of the deposited data

Results flagged for a closer look

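Among the 6 cells of embryo 2, 15 measures were examined for a cell far from the others, and 3 had one, by Dixon's ratio of the gap to the range at the 95% level. Chance marks about 1 in 20 such groups. The 3 cells of embryo 1 were too few for this. Dck in embryo 2 cell 8 was at 25.8 TPM, where the next cell was at 13.9 TPM and the lowest at 10.7 TPM. Rrm2b in the same cell was at 11.9 TPM, where the next cell was at 5.22 TPM and the lowest at 2.32 TPM. Cell 8 was also highest of embryo 2 in Rrm1 and lowest in Tyms and Dctpp1, without passing the same limit. In cell 6 the percentage replication score was 62.4%, where the next cell was at 74.2% and the highest at 80.5%.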

How the results depend on the processing

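Of 299 recomputed values, 274 stayed within the SD between cells or, for counts, within 1.5 times. Leaving out 1 cell rarely moves a mean by a whole SD between cells, so a high number was likely in advance. Of 153 recomputed single-gene differences, 4 moved by more. The sign of the difference was kept in 10 of 17 settings for Rrm1 and for Rrm2b. It was kept in 15 of 17 for Rrm2 and in 17 of 17 for each other member. The median member difference of -0.37 ran from -0.45 to -0.12 when each cell was left out, the latter without embryo 1 cell 1, and was -0.14 without embryo 1 cell 1 and embryo 2 cell 6, which was chosen after seeing the data. Members higher in every embryo 2 cell numbered 1 (0.843% of all genes), and 2 within the cells numbered 11 to 17 (27.5% of all genes). Members lower numbered 0 and ran from 0 to 1 when each cell was left out. Dut was lower without embryo 1 cell 1 (4.61% of all genes) or embryo 2 cell 3 (3.45%), and Samhd1 without embryo 1 cell 6 (5.95%). Members lower were 4 within the cells numbered 11 to 17 (38.3% of all genes) and 1 within those numbered 20 to 25 (8.90%). Without both embryo 1 cell 1 and embryo 2 cell 6 the number was 1 (Dut, beside 5.44% of all genes). Pathway genes higher numbered 0 and ran from 0 to 1 (Pfas, without embryo 1 cell 1, beside 4.19% of all genes). They were 14 and 1 within the 2 ranges, beside 27.5% and 6.15% of all genes. Pathway genes lower numbered 4 (2.51% of all genes). They were 2 without mitochondrial genes (282 of all 13936 genes), 2 over protein-coding nuclear genes (271 of 11148) and 1 under median scaling (303 of 13644). Within the ranges they were 20 and 10, beside 38.3% and 8.90% of all genes. The cause was not tested, though smaller groups overlap less by construction. At TPM > 5, 8 members were detected per cell in place of 8.89, and 13 of 26 transcripts with a mean of 1 TPM or more were annotated as coding. Rrm1 changed sign between the ranges, as did Rrm2b. No paired analysis was possible because cells of different embryos share only a number in the labels and no test was made. Without read counts, the precision of low genes such as Samhd1 and Rrm2b is unknown.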
